A study of Homo sapiens with 30 samples.

Results

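GLIPR1 (glioma pathogenesis-related protein 1, also known as RTVP-1, Entrez gene 11010, chromosome 12) was described across 30 microarrays of human small airway epithelial (SAE) cells. Every probe set whose platform symbol is exactly GLIPR1 was taken, which gave 3 of the 22277 probe sets on the array: 214085_x_at, 204222_s_at and 204221_x_at. The first had the highest mean over the 30 arrays and stood for GLIPR1 among 11963 genes with 1 probe set each. The gene was chosen by its measured 1 h values, which rise with dose, so its 1 h differences from the controls and between the doses are descriptions, with no test. Comparisons at 24 h were not used in choosing it and were tested. The particles were also tested against each other at 1 h. Those tests use the same 1 h arrays as the choice, which may favour a gene that rises alike with both particles.

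The cells, bought from Lonza, came from the lining of the narrow airways. They were trypsinised, counted, plated from suspension and given either multi-walled carbon nanotubes, abbreviated MWCNT, or nanobelts of titanium dioxide, abbreviated TiO2-NB, in the medium at 10 or 100 ug/ml. RNA was taken from the adherent cells after 1 or 24 h. Controls at both times went through the same plating with 0 ug/ml. The 10 groups were therefore control, MWCNT 10, MWCNT 100, TiO2-NB 10 and TiO2-NB 100 ug/ml at 1 h and the same at 24 h. Each held 3 arrays labelled as biological replicates. Nothing in the labels says how many donors or cell lots these covered, so the spread between arrays may be partly technical.

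GLIPR1 belongs to the CAP superfamily, named after cysteine-rich secretory proteins, antigen 5 and pathogenesis-related 1 proteins. It carries a signal peptide and a membrane-spanning stretch near its carboxyl end, and it was found through its high expression in glioma. It is known as a p53-induced gene that is often silenced in prostate cancer, as a target of serum response factor (SRF) in glioma cells, and as a gene expressed in myeloid cells. SRF works with myocardin-related factors (MRTFs), which enter the nucleus when actin filaments assemble, to switch on cytoskeletal genes, and with ternary complex factors to switch on immediate early genes after growth factor signals.

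Values are the deposited log2 expression values, on which 1 unit is a doubling. The array medians lay between 7.15 and 7.21, which quantile normalisation makes nearly equal whatever the arrays hold. Replicate 1 of the 24 h controls stood apart in some genes named here: ZNF281 read 8.0 there against 8.63 and 8.72, KLF6 9.26 against 9.84 and 9.88, and ID1 7.55 against 8.32 and 8.22. Without it limma called 74 genes in TiO2-NB 10 at 24 h in place of 724. Of 7 measured airway epithelial markers, 4 averaged more than the median value of all probe sets, with SFN (stratifin) highest at 11.76 and KRT14 (a basal keratin) lowest at 3.94. Of 7 immune markers, 1 was above that median (CD14, 7.71), and LYZ (lysozyme, a myeloid product) averaged 3.18. Of 7 fibroblast markers 3 were above it and of 5 endothelial markers 0. Of 3 alveolar, 3 secretory and 3 ciliated cell markers, 1, 0 and 0 were. In each of the 4 exposed groups at 1 h, 0 members of the 7 marker lists passed limma's test against the control, where 0.0669% (MWCNT 10), 1.7% (MWCNT 100), 0.711% (TiO2-NB 10) and 2.12% (TiO2-NB 100) of all genes did. The mean of the immune list lay between 5.42 and 5.47 in the 5 groups at 1 h. In bulk cultures, fewer cells of a type and less RNA per cell cannot be told apart.

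At 1 h GLIPR1 was higher in every exposed array than in every control array, and higher at 100 than at 10 ug/ml of the same particle. In the lead probe set, 214085_x_at, the 3 controls read 7.31, 7.47 and 7.87. With MWCNT the arrays read 8.32, 8.49 and 8.51 at 10 ug/ml and 9.57, 9.92 and 10.03 at 100 ug/ml. With TiO2-NB they read 8.69, 8.74 and 8.91 at 10 ug/ml and 10.31, 9.59 and 10.26 at 100 ug/ml. The 3 dose levels of each particle thus formed separate bands with no shared values, while the arrays at 100 ug/ml of the particles overlapped.

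The difference from control at 10 ug/ml was 0.89 ± 0.17 (SE) with MWCNT, 1.86-fold, and 1.23 ± 0.17 with TiO2-NB, 2.35-fold. At 100 ug/ml it was 2.29 ± 0.17, 4.89-fold, with MWCNT and 2.50 ± 0.17, 5.67-fold, with TiO2-NB. Ranked by difference among the 11963 genes, GLIPR1 stood 3rd in MWCNT 10, 2nd in MWCNT 100, 5th in TiO2-NB 10 and 1st in TiO2-NB 100. All 4 differences are measured against the same 3 controls, so they share the error of the control mean. Without each array in turn the differences stayed between 0.77 and 1.05, 2.17 and 2.45, 1.11 and 1.39, and 2.37 and 2.74, in the same order of groups.

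Going from 10 to 100 ug/ml added 1.40 ± 0.17 (SE) with MWCNT, 2.64-fold, and 1.27 ± 0.17 with TiO2-NB, 2.42-fold. The lower dose gave 39.0% of the log2 difference at the higher dose with MWCNT and 49.2% with TiO2-NB. On the linear scale those shares were 22.0% and 28.9%. In 204222_s_at and 204221_x_at the log2 shares were 35.1% and 32.1% with MWCNT and 45.5% and 43.5% with TiO2-NB.

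**Figure D1:**
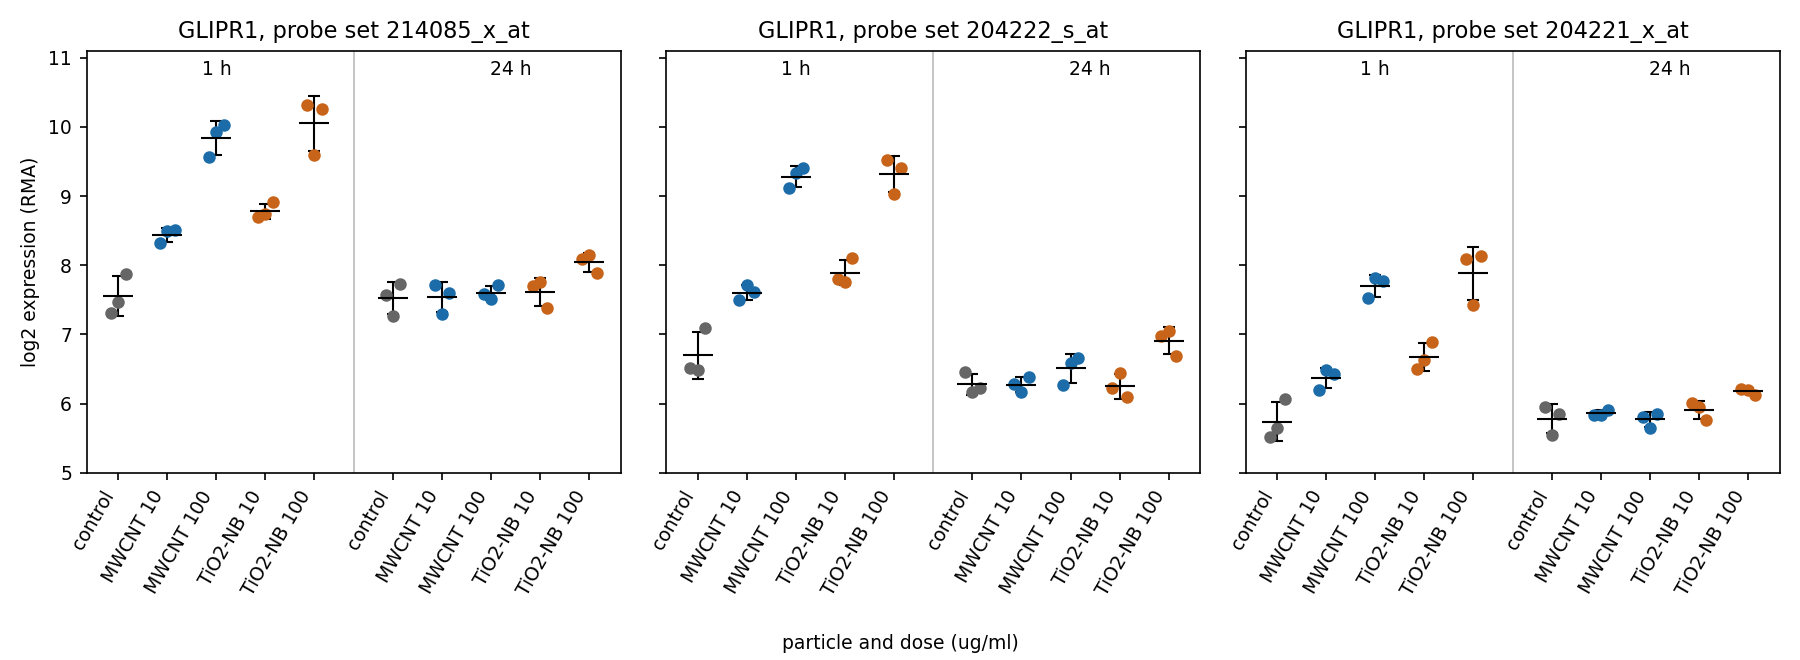
GLIPR1 in all 30 arrays: log2 expression on the vertical axis, the 10 groups on the horizontal axis, 1 panel per probe set, each point 1 array, each horizontal mark the mean of 3 arrays and each error bar its SD. In the lead set the 1 h controls lie between 7.31 and 7.87, the arrays at 10 ug/ml between 8.32 and 8.91 and those at 100 ug/ml between 9.57 and 10.31, while at 24 h the groups other than TiO2-NB 100 lie between 7.27 and 7.75.

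The other probe sets gave the same bands. In 204222_s_at the 1 h controls read 6.52, 6.48 and 7.09, MWCNT 7.49, 7.71 and 7.61 and then 9.11, 9.33 and 9.40, and TiO2-NB 7.80, 7.76 and 8.10 and then 9.52, 9.03 and 9.40. In 204221_x_at the controls read 5.52, 5.64 and 6.06, MWCNT 6.20, 6.49 and 6.42 and then 7.52, 7.81 and 7.77, and TiO2-NB 6.50, 6.63 and 6.89 and then 8.09, 7.43 and 8.13. No array of a dose reached the band of the next dose in either set. The difference from control at 100 ug/ml was 2.58 ± 0.15 (SE) with MWCNT and 2.62 ± 0.15 with TiO2-NB in 204222_s_at, and 1.96 ± 0.15 and 2.14 ± 0.15 in 204221_x_at. Probe sets ending in _x_at or _s_at hold probes that can also pair with other transcripts, by the maker's naming, so each set's level is its own and levels were not compared between sets.

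Across the 15 arrays at 1 h the probe sets correlated pairwise at r of 0.991 to 0.995. Part of this is the shared group differences. After each group's mean was taken off, the deviations of single arrays still correlated at 0.908 to 0.961, so the high array of the controls (replicate 3) and the low array of TiO2-NB 100 (replicate 2) appeared in all 3 sets. At 24 h, where the groups lay close together, the correlations were 0.691 to 0.862 for the values and 0.450 to 0.717 for the deviations. Probe sets on 1 array share its RNA and its normalisation, and these values are descriptions.

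Ordered by the mean of the lead set over the 10 groups, GLIPR1 was highest in TiO2-NB 100 at 1 h (10.05 ± 0.40, SD, n = 3), followed by MWCNT 100 at 1 h (9.84 ± 0.24), TiO2-NB 10 at 1 h (8.78 ± 0.11), MWCNT 10 at 1 h (8.44 ± 0.10) and TiO2-NB 100 at 24 h (8.04 ± 0.14). The gap between the first and the second, 0.21, was smaller than their pooled SD of 0.33, and their arrays overlapped. The next 4 gaps, 1.06, 0.34, 0.40 and 0.43, were each larger than the spread of the groups on either side, with no overlap. The remaining groups, TiO2-NB 10 at 24 h (7.61 ± 0.20), MWCNT 100 at 24 h (7.60 ± 0.10), control at 1 h (7.55 ± 0.29), MWCNT 10 at 24 h (7.54 ± 0.22) and control at 24 h (7.52 ± 0.23), were separated by gaps of 0.01 to 0.05, within their spread. The 4 highest groups had the same order in all 3 probe sets.

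At 24 h GLIPR1 was close to its control level in 3 of the 4 exposed groups. The 24 h controls read 7.57, 7.27 and 7.73 in the lead set. MWCNT arrays read 7.72, 7.29 and 7.60 at 10 ug/ml and 7.58, 7.51 and 7.71 at 100 ug/ml, and TiO2-NB arrays 7.70, 7.75 and 7.38 at 10 ug/ml. These 3 groups overlapped the controls. Their differences were 0.01 (95% interval -0.34 to 0.36, adjusted p = 0.999), 0.08 (-0.27 to 0.43, adjusted p = 0.992) and 0.09 (-0.26 to 0.44, adjusted p = 0.774) in limma with Benjamini-Hochberg adjustment. The upper ends of these intervals lie under the smallest 1 h difference of the lead set, 0.89 (0.54 to 1.24). The gene was chosen by its 1 h values, so this is a description, and the times were not compared in a test. In 204221_x_at the smallest 1 h difference was 0.63 (0.32 to 0.94), with MWCNT 10. That interval overlaps those of MWCNT 10 (-0.24 to 0.39) and TiO2-NB 10 (-0.19 to 0.44) at 24 h. With either dose of MWCNT at 24 h limma called 0.0% of the 11963 genes (389 at MWCNT 10 and 661 at MWCNT 100 had an unadjusted p under 0.05), and with TiO2-NB 10 it called 6.05%, 2.55% higher and 3.5% lower.

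TiO2-NB at 100 ug/ml was the exception. Its arrays read 8.09, 8.15 and 7.88 and all lay above the 24 h controls. GLIPR1 rose by 0.52 ± 0.17 (SE; 95% interval 0.17 to 0.86), 1.43-fold, with a limma adjusted p of 0.0457. In that comparison 13.2% of all genes were called, 4.3% higher and 8.89% lower, and GLIPR1 was 47th from the top by size. The arrays of TiO2-NB 100 also lay above the controls in the other probe sets: 6.98, 7.05 and 6.69 against 6.45, 6.17 and 6.22 in 204222_s_at, a rise of 0.63 ± 0.15 (adjusted p = 0.0124), and 6.21, 6.20 and 6.13 against 5.95, 5.55 and 5.85 in 204221_x_at, a difference of 0.40 ± 0.15 that missed the threshold (adjusted p = 0.0918). These adjusted p values come from a fit of all probe sets, 10.4% of which were called. The call sat close to the threshold: under 14 alternatives the adjusted p lay between 0.0124 and 0.166 and passed in 6, while the difference kept its direction in all 14 (0.39 to 0.63). Without single arrays it passed in 1 of 6 cases, the one without the third control.

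In the same group, 4.3% of all genes were called higher and 8.89% lower. The epithelial adherens junction protein CDH1 fell by 0.39 ± 0.08 (adjusted p = 0.00435), and 3 of the 7 epithelial markers fell in all (CDH1, KRT5 and KRT19). Without each of the 6 arrays CDH1 and KRT19 still passed, KRT5 in 1 case. The list's mean was 7.38 there against 7.58 in the 24 h controls. Of the 7 fibroblast markers 2 rose, COL1A1 by 0.35 ± 0.10 (adjusted p = 0.0237) and DCN by 0.41 ± 0.12 (adjusted p = 0.0256), with list means of 6.14 against 6.02. Of 3 secretory markers MUC5B, an airway mucin, rose by 0.32 ± 0.09 (adjusted p = 0.0171). Of the 6 cases with an array left out, COL1A1 passed in 4, DCN in 2 and MUC5B in 3. KRT19 (5.38 against 5.93 in the 24 h controls), DCN (5.85 against 5.44) and MUC5B (6.36 against 6.04) lay under the array medians. A difference may be poorly measured at such levels. Of the 7 immune markers 0 passed, with list means of 5.46 and 5.36. CDH1 also fell in TiO2-NB 10 at 24 h, by 0.38 ± 0.08 (adjusted p = 0.019), where GLIPR1 differed by 0.09 and 3.5% of all genes were called lower. The part of these marker shifts in the GLIPR1 value was not tested.

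Within TiO2-NB at 24 h the 100 ug/ml arrays lay above the 10 ug/ml arrays in the lead set, by 0.43 (95% interval 0.08 to 0.78), but the adjusted p was 0.332 in a comparison that called 0.986% of genes. The difference was 0.66 in 204222_s_at (adjusted p = 0.0379) and 0.27 in 204221_x_at (adjusted p = 0.602), with 0.729% of all probe sets called. With MWCNT the doses at 24 h differed by 0.06 (-0.29 to 0.41, adjusted p = 1.0; 268 genes at an unadjusted p under 0.05 and 0.0% called). Over all 12 exposed arrays at 24 h, the mean was 0.17 above that of the 3 controls, and an exact two-sided permutation test gave p = 0.31, where 455 splits allow a smallest p of 0.0022.

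**Figure D2:**
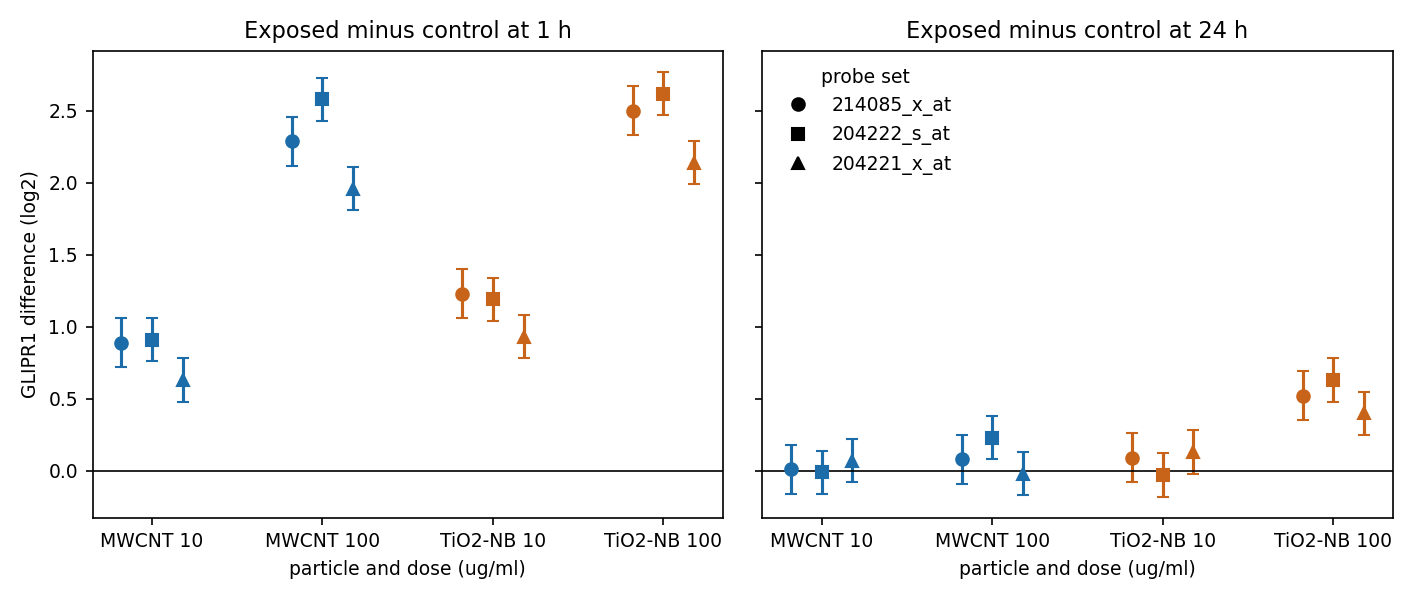
Difference of GLIPR1 from the control of the same time on the log2 scale, for each particle and dose (horizontal axis) at 1 h (left) and 24 h (right), with 1 symbol shape per probe set and error bars of 1 SE from the fit. In the lead set the 1 h differences run from 0.89 to 2.50, and at 24 h they are 0.01, 0.08, 0.09 and, in TiO2-NB 100, 0.52.

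The particles were compared at matched mass doses. They differ in material and form, carbon tubes against titanium dioxide belts, and equal mass does not mean equal number or surface. GLIPR1 was lower with MWCNT than with TiO2-NB at 10 ug/ml and 1 h in every array (8.32 to 8.51 against 8.69 to 8.91), a difference of -0.34 (95% interval -0.69 to 0.01, adjusted p = 0.51) that did not pass. At 100 ug/ml and 1 h the difference was -0.21 (-0.56 to 0.14, adjusted p = 0.896) and the arrays overlapped. These 2 comparisons called 0.00836% and 0.0167% of all genes. Limma thus called almost no gene between the particles at 1 h, though 1202 genes at 10 and 756 at 100 ug/ml had an unadjusted p under 0.05. A lack of calls does not show that the particles acted alike. The interval leaves room for GLIPR1 to differ by up to 0.69 at the lower dose.

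At 24 h the MWCNT 100 arrays (7.51 to 7.71) all lay below the TiO2-NB 100 arrays (7.88 to 8.15). The difference was -0.44 (95% interval -0.79 to -0.09) with an adjusted p of 0.0878, in a comparison in which 12.2% of genes were called. It was -0.40 (adjusted p = 0.0938) in 204222_s_at and -0.41 (adjusted p = 0.0838) in 204221_x_at, with 8.91% of all probe sets called. At 10 ug/ml it was -0.08 (-0.43 to 0.27, adjusted p = 0.818), with 4.88% of genes called.

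Taking both doses together, GLIPR1 was lower with MWCNT by 0.28 at 1 h (exact permutation within dose, two-sided, p = 0.09) and by 0.26 at 24 h (exact permutation p = 0.055), where 400 splits allow a smallest p of 0.005. In 204221_x_at the 24 h value was -0.23 (exact permutation p = 0.03) and in 204222_s_at -0.19 (exact permutation p = 0.15). Between 1 and 24 h the particle difference at 100 ug/ml changed by -0.23 ± 0.24 (SE, limma adjusted p = 0.65), in a comparison added after the data were seen that called 1.86% of genes. A gap between the particles at 24 h that differs from the one at 1 h was therefore not shown for GLIPR1.

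GLIPR1 was not alone in its 1 h order. A rise without overlap from control to 10 and from 10 to 100 ug/ml with both particles was found in 26 of the 11963 genes, 0.217%, and a fall in the same way in 8. The particles share their controls, so the orders are not independent of each other. By the mean difference at 100 ug/ml GLIPR1 came first with 2.40, just ahead of EGR3, an immediate early transcription factor, with 2.31. FILIP1L, a filamin A-interacting protein-like gene, followed with 1.75, then NR4A1 (an immediate early nuclear receptor) with 1.64, TAGLN (transgelin, an actin-bundling protein) with 1.58, GBP1 (an interferon-induced GTPase) with 1.38, FOSB (an AP-1 subunit) with 1.25, EPPK1 (epiplakin, a keratin linker) with 1.23, KLF6 (a Krüppel-like factor) with 1.11 and ZNF281 (a zinc finger factor) with 1.06. The remaining 16 began with KLF7 at 1.03 and ARID5B at 0.83. They included SRF itself at 0.77 and its cytoskeletal targets VCL (vinculin) at 0.59 and TPM4 (a tropomyosin) at 0.74. Of the 26 graded genes, 7 are on the list of SRF and MRTF targets used below.

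The genes closest to GLIPR1 were ranked by Pearson r of the lead set over the 15 arrays at 1 h, among 6906 genes averaging more than the table's median over those arrays. The median r of all of them was -0.153, and 25 exceeded 0.9. The first 10 were ZNF281 (0.984), KLF7 (0.972), the Cdc42 effector CDC42EP3 (0.962), TPM4 (0.957), RND3 (0.956), TAGLN (0.956), the matricellular protein CCN2 (0.956), EPPK1 (0.956), the chromatin factor ARID5B (0.955) and KLF6 (0.954). The eleventh stood at 0.952, so the end of the list is arbitrary. All 10 were among the 26 graded genes. These correlations mostly restate group differences that the 15 arrays share.

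ZNF281, the nearest, followed GLIPR1 through every band at a smaller size. Its controls read 8.67, 8.74 and 9.02, its MWCNT arrays 9.21, 9.18 and 9.35 and then 9.70, 9.83 and 9.99, and its TiO2-NB arrays 9.41, 9.36 and 9.44 and then 9.86, 9.76 and 10.10. The differences at 100 ug/ml were 1.03 with MWCNT and 1.10 with TiO2-NB, against 2.29 and 2.50 for GLIPR1. The third control was the highest of its group in both genes, as the array deviations, which correlated at 0.787, also show.

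TAGLN came nearest to GLIPR1 in size among the 10. Its controls read 9.55, 9.65 and 10.08, its MWCNT arrays 10.29, 10.45 and 10.21 and then 11.26, 11.35 and 11.40, and its TiO2-NB arrays 10.42, 10.55 and 10.49 and then 11.49, 11.50 and 11.05. The differences at 100 ug/ml were 1.58 and 1.59. Array deviations of TAGLN followed those of GLIPR1 less closely (r of 0.232) than those of ARID5B did (0.882). Of the 10 genes, KLF6 and KLF7 had differences at 10 ug/ml of 0.49 and 0.53 with MWCNT and of 0.78 and 0.66 with TiO2-NB, while CCN2 had 0.19 and 0.23.

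**Figure D3:**
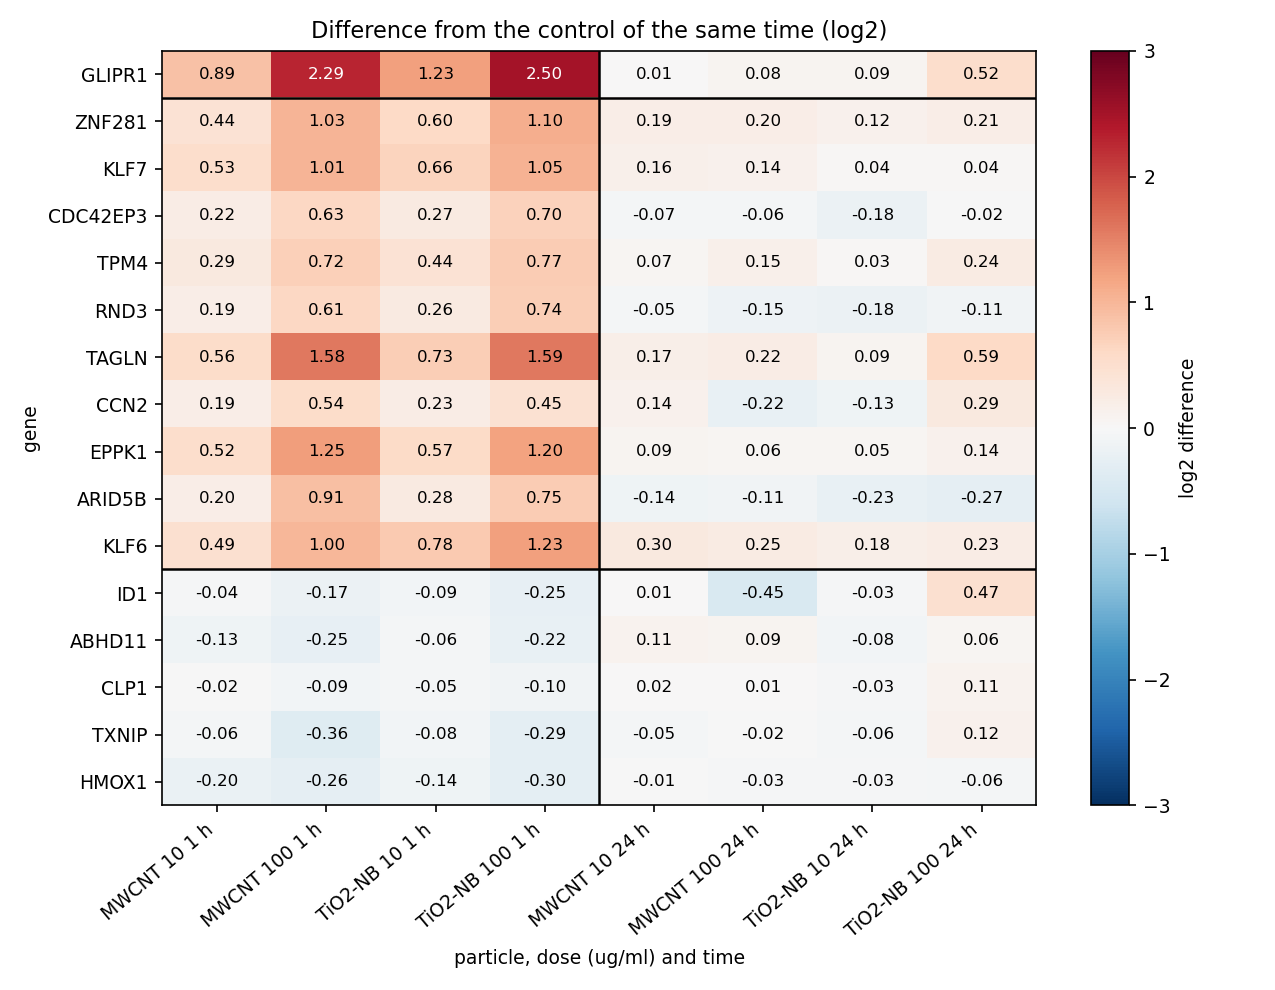
Difference from the control of the same time on the log2 scale (colour and printed value) for GLIPR1, the 10 genes most like it and the 5 least like it over the 15 arrays at 1 h (vertical axis), in the 4 exposed groups at each time (horizontal axis). At 1 h GLIPR1 has the largest difference of the genes shown in each group, up to 2.50, the 10 genes below it run from 0.19 to 1.59, and at 24 h most cells are pale.

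**Figure D4:**
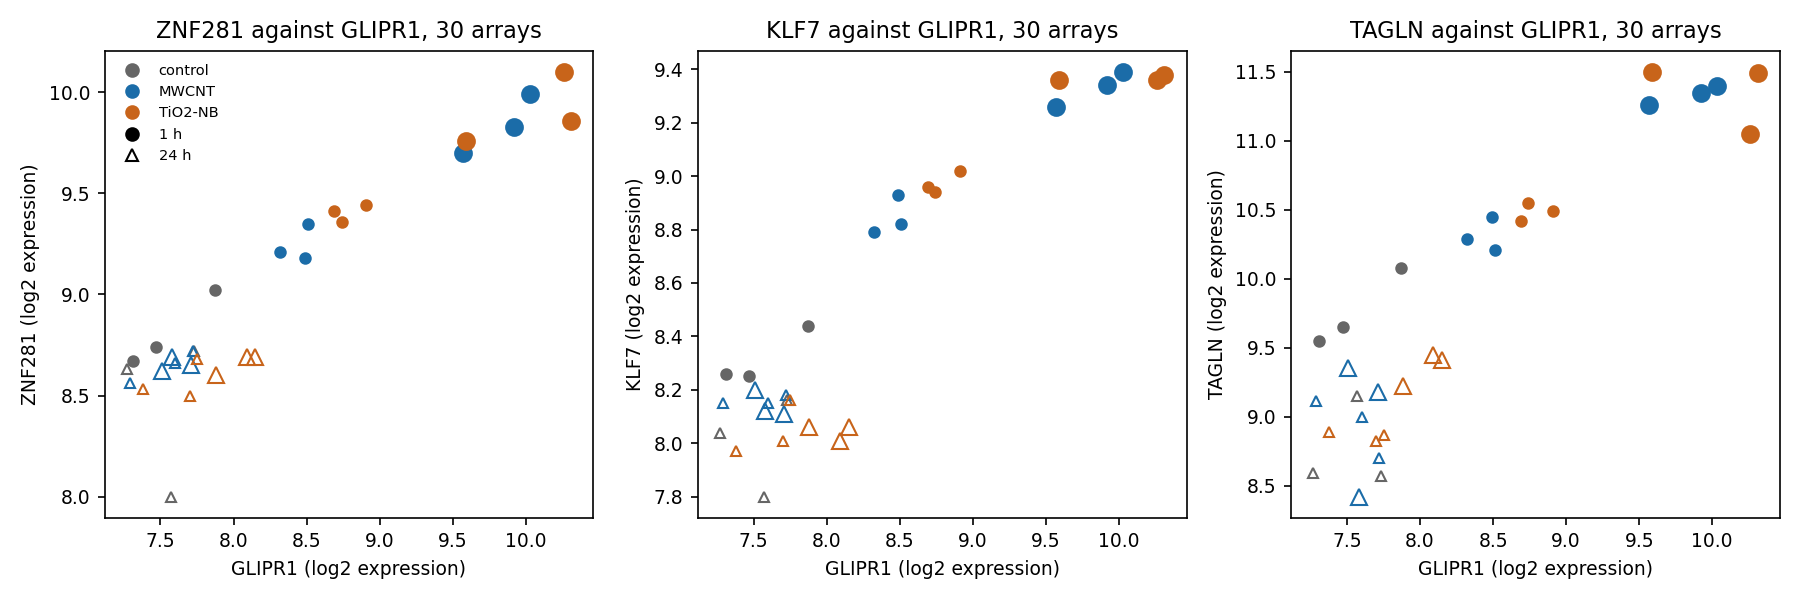
Log2 expression of ZNF281, KLF7 and TAGLN (vertical axes) against GLIPR1 in the lead set (horizontal axes), 1 point per array for all 30, coloured by particle, filled at 1 h and open triangles at 24 h, larger at 100 ug/ml. The 15 arrays at 1 h lie along a rising band (r of 0.984, 0.972 and 0.956). Those at 24 h sit together at low GLIPR1 values, with 1 control low in ZNF281 at 8.0. In KLF7 (7.8 to 8.2) and TAGLN (8.42 to 9.45) the 24 h arrays all lie below the lowest 1 h control, at 8.25 and 9.55.

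The genes with the most opposite course were ID1 (r of -0.927), an inhibitor of basic helix-loop-helix factors, ABHD11 (-0.915), the RNA kinase CLP1 (-0.913), TXNIP (-0.905), a thioredoxin-binding arrestin, and HMOX1 (-0.897), the heme oxygenase of the antioxidant response. Their differences were small beside that of GLIPR1. At 100 ug/ml ID1 differed from control by -0.17 with MWCNT and -0.25 with TiO2-NB, TXNIP by -0.36 and -0.29, and HMOX1 by -0.26 and -0.30.

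Over the 15 arrays at 24 h r with GLIPR1 was 0.267 for ZNF281, 0.451 for TAGLN and -0.41 for ARID5B. These genes were picked for the highest r at 1 h, so a lower r in other arrays follows from the choice, and the probe sets of GLIPR1 itself correlated at only 0.691 to 0.862 there. Without replicate 1 of the 24 h controls GLIPR1 in TiO2-NB 100 differed from the controls by 0.54, with an adjusted p of 0.0846. In TiO2-NB 100 at 24 h, the group in which GLIPR1 rose in the full set, 2 of the 10 like genes rose and 1 fell, where 4.3% of all genes were called higher and 8.89% lower. TAGLN rose by 0.59 ± 0.18 (adjusted p = 0.0353), with arrays at 9.45, 9.41 and 9.22 against 9.15, 8.59 and 8.57. CCN2 rose by 0.29 ± 0.07 (adjusted p = 0.0141), and ARID5B fell by 0.27 ± 0.08 (adjusted p = 0.0294). With each of the 6 arrays left out in turn, a check added after the data were seen, TAGLN passed in 1 case (0.49 to 0.78, adjusted p = 0.0174 to 0.111), CCN2 in 4 (0.21 to 0.37, adjusted p = 0.00462 to 0.0856) and ARID5B in 1 (-0.34 to -0.23, adjusted p = 0.0159 to 0.109). TAGLN passed only without control replicate 1 and ARID5B only without control replicate 3. In the other 3 exposed groups at 24 h, 0 of the 10 passed limma's test, where 0.0%, 0.0% and 6.05% of all genes were called. ID1, opposite to GLIPR1 at 1 h, rose in TiO2-NB 100 at 24 h by 0.47 (adjusted p = 0.0491), but by 0.23 ± 0.14 without control replicate 1, which no longer passed (adjusted p = 0.31).

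Relatives of GLIPR1 were measured only at low levels, and 0 passed the test. Of 14 other CAP superfamily genes on a list written from general knowledge, 5 were measured (CRISP1, CRISP2, CRISP3, CRISPLD2 and PI15), and 0 passed limma's test in any of the 8 comparisons with controls. Among these secreted cysteine-rich proteins the differences at 1 h lay between -0.35 (CRISP3, adjusted p = 0.308) and 0.11 (CRISPLD2) in MWCNT 100 and between -0.25 and 0.15 in TiO2-NB 100. Their means in the 1 h controls were 2.97 (CRISP2), 3.22 (CRISP3), 3.88 (CRISP1), 5.17 (PI15) and 6.06 (CRISPLD2), all under the array medians, so a difference in them may not be measurable here. The closest paralogs, GLIPR1L1 and GLIPR1L2, were not among the tested genes. In MWCNT 10, MWCNT 100, TiO2-NB 10 and TiO2-NB 100, limma called 0.0669%, 1.7%, 0.711% and 2.12% of all genes in either direction at 1 h. At 24 h the shares were 0.0%, 0.0%, 6.05% and 13.2%. A count of 0 of 5 is thus near the background.

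None of the measured chromosomal neighbours passed the test at 1 h. In the RefSeq gene table (GRCh38.p14) the interval of KRR1, a ribosome biogenesis factor, overlaps that of GLIPR1. KRR1 differed from control by -0.03 ± 0.11 (limma adjusted p = 0.955) in MWCNT 100 and by 0.04 ± 0.11 (limma adjusted p = 0.947) in TiO2-NB 100 at 1 h, with an r of 0.103 to GLIPR1. PHLDA1, an immediate early gene on the same side, differed by -0.14 and by 0.18 ± 0.13 (limma adjusted p = 0.707). At 24 h, in TiO2-NB 100, PHLDA1 rose by 0.53 ± 0.13 (adjusted p = 0.0127), with a pass in 4 of the 6 cases without an array. The other measured neighbours were KCNC2, ATXN7L3B, TRHDE and NAP1L1, and 0 of the 6 passed limma's test in any 1 h comparison with controls. Of all genes 0.0669% (MWCNT 10), 1.7% (MWCNT 100), 0.711% (TiO2-NB 10) and 2.12% (TiO2-NB 100) were called there. A count of 0 of 6 is thus near the background.

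**Figure D5:**
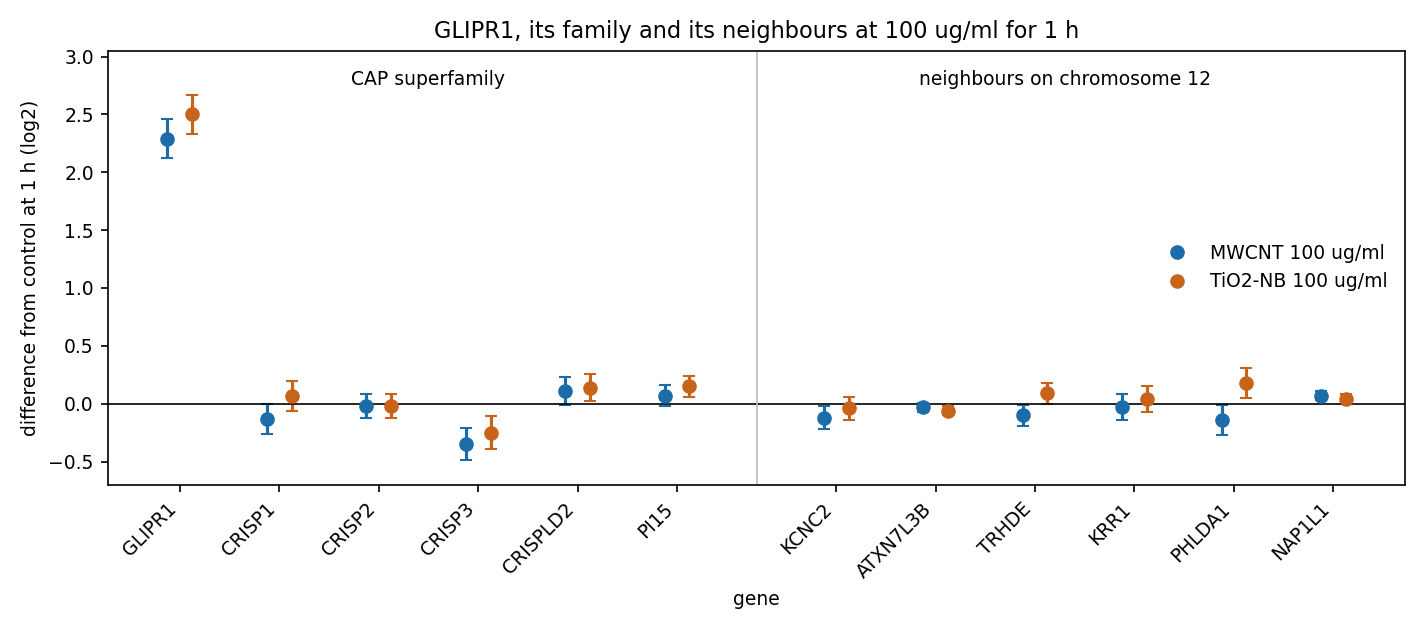
Difference from the 1 h control on the log2 scale at 100 ug/ml for GLIPR1, the 5 other measured CAP superfamily genes and the 6 measured neighbours, as points with bars of 1 SE, in blue for MWCNT and orange for TiO2-NB. GLIPR1 stands at 2.29 with MWCNT and 2.50 with TiO2-NB, and KRR1, whose interval overlaps it, at -0.03 and 0.04.

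Some targets of SRF and its MRTF partners, among which GLIPR1 has been placed, rose at 100 ug/ml and 1 h, and others did not. Of 25 measured list members other than GLIPR1, 14 rose in MWCNT 100 and 13 in TiO2-NB 100, against 1.26% and 1.74% of all genes called higher, and 0 fell. At 10 ug/ml 2 rose with MWCNT (0.0418% of all genes called higher) and 5 with TiO2-NB (0.702%), and both counts went to 0 with the compared groups fitted alone and at their lowest with single arrays left out. The median differences at 100 ug/ml were 0.33 and 0.32, beside -0.02 and -0.03 over all genes. SRF itself rose by 0.86 ± 0.06 (adjusted p = 1.59e-09) and 0.68 ± 0.06 (adjusted p = 1.2e-07). EGR3 rose by 2.48 and 2.14, ANKRD1, a cardiac ankyrin repeat protein also known as a YAP target, by 1.68 and 1.79, and FOSB by 1.24 and 1.27. Actin genes on the list, ACTB and ACTA2, did not pass at either dose, with differences of -0.19 to 0.13. In all, 11 members did not pass in MWCNT 100 and 12 in TiO2-NB 100. They included EGR1 (-0.05 and -0.02), FOS (0.16 and 0.11), JUNB (-0.02 and 0.06), IER2 (0.06 and 0.18) and MCL1 (0.07 and -0.05). EGR1, FOS and JUNB were higher in the 1 h than in the 24 h controls (13.66 against 10.29, 9.36 against 6.03 and 9.71 against 6.66). So were EGR3 (8.9 against 3.98), FOSB (9.15 against 5.76) and CCN2 (13.42 against 9.27), which rose at 100 ug/ml and 1 h. Any bearing of the control levels on the calls was not tested. At 24 h in TiO2-NB 100, 4 members rose (FOS, JUNB, TAGLN and CCN2), where 4.3% of all genes were called higher and 8.89% lower, and SRF fell by 0.29 ± 0.06 (adjusted p = 0.0047). FOS and SRF also passed without each of the 6 arrays, JUNB without 1 of them.

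Immediate early and growth factor response genes overlapped this list in 6 genes, 24.0% of it and 20.0% of their own 30 measured members. At 1 h 9 rose in MWCNT 100, 12 in TiO2-NB 100, 1 in MWCNT 10 and 3 in TiO2-NB 10, and 0 fell, against 1.26%, 1.74%, 0.0418% and 0.702% of all genes called higher. At 10 ug/ml the counts ran from 0 to 2 with MWCNT and from 1 to 4 with TiO2-NB over the other settings and single arrays left out. NR4A1 rose by 1.71 ± 0.09 and 1.57 ± 0.09 and KLF6 by 1.00 ± 0.11 and 1.23 ± 0.11 at 100 ug/ml, each with an adjusted p of at most 2.09e-06. In TiO2-NB 100 at 24 h, 12 members rose and 1 fell (SGK1, a serum-induced kinase), against 4.3% of all genes called higher, and the median difference was 0.22. FOSB was the only member of either list that rose in TiO2-NB 10 at 24 h, by 0.61 ± 0.14 (adjusted p = 0.0222). In that comparison 2.55% of all genes were called higher. For both lists the count there went to 0 with the compared groups fitted alone and at its lowest with single arrays left out. In TiO2-NB 100 at 24 h FOSB did not pass (0.31, adjusted p = 0.141). How many members of these lists rose at 24 h depended on the settings: for the immediate early list in TiO2-NB 100 it ran from 1 of 30 with the compared groups fitted alone to 18 with array weights, and for the SRF list from 0 to 8 of 25.

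Few targets of p53, the factor through which GLIPR1 was described as a tumour suppressor gene, were called. Of 20 measured members 1 rose at 100 ug/ml and 1 h: PLK2, a polo-like kinase, by 0.47 ± 0.09 (adjusted p = 0.00444) with MWCNT and by 0.52 ± 0.09 (adjusted p = 0.00101) with TiO2-NB. In these comparisons 1.26% and 1.74% of all genes were called higher. At 10 ug/ml 0 passed limma's test, where 0.0669% (MWCNT) and 0.711% (TiO2-NB) of all genes did. In TiO2-NB 100 at 24 h, where 4.3% of all genes were called higher, CDKN1A, the p21 cell cycle inhibitor, rose by 0.18 ± 0.06 (adjusted p = 0.0397) and the death receptor FAS by 0.25 ± 0.06 (adjusted p = 0.0141), and in TiO2-NB 10, where 3.5% were called lower, the phosphatase PPM1D fell by 0.22 ± 0.06 (adjusted p = 0.0408). The count that rose in TiO2-NB 100 at 24 h ran from 0 of 20 with the compared groups fitted alone to 7 with array weights, and from 1 to 3 without single arrays. With array weights 3 also rose in MWCNT 100 at 24 h. The lists overlap in part with the genes most like GLIPR1: 3 of the 10 (CCN2, TAGLN and TPM4) are on the SRF list and 1 (KLF6) on the immediate early list. Any part of SRF or p53 in the GLIPR1 values was not tested.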

How the data were processed

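Expression was measured in 30 Affymetrix arrays of biotin-labelled total RNA. For each probe set the authors deposited a log2 value made with RMA, per the submitters' processing notes, a method that corrects background, normalises arrays by quantiles and summarises the probes of a set; its version, the probe definitions and the genome build are not given in the sources used here. RMA compresses low values, so differences of dim sets can be understated, and 3 arrays per group set the precision. No normalisation was added.

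Of 22215 probe sets that are not controls, 19064 had 1 symbol in the platform annotation, 1043 several and 2108 none; the last 2 kinds were left out. Each gene was represented by its set with the highest mean (11963 genes). Limma 3.58.1 (R 4.3.3) fitted 1 mean per group over all 30 arrays. P-values were adjusted by Benjamini-Hochberg over the genes of each comparison (threshold 0.05), and "rose" and "fell" refer to it. The other GLIPR1 sets were read from a fit of all 22215 probe sets. With 3 arrays a side the smallest two-sided p of an exact permutation is 0.10, so each call depends on the variance that limma pools over genes. The fit was tested on simulated data. Permutations used scipy 1.17.1, and figures matplotlib 3.10.9.

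GLIPR1, the lists and the naming rule were chosen with earlier results of these data known. Named genes are the 10 highest and 5 lowest by Pearson r with GLIPR1 at 1 h, the 10 largest graded genes, measured CAP superfamily genes, the 3 nearest measured protein-coding genes on each side, up to 4 called members of each list at 100 ug/ml and 1 h, and the markers. Other list members, such as those called at 24 h, were picked with their values in view. The lists are CAP superfamily, SRF and MRTF targets, p53 targets, immediate early and growth factor response, and markers of airway epithelial, immune, fibroblast, endothelial, alveolar, secretory and ciliated cells. Alternatives were cyclic loess, a filter on dim genes, fitting the compared groups alone, a replicate block, array weights, the other probe sets, all probe sets fitted, and each array left out.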

Additional observations from a re-analysis of the deposited data

How the results depend on the processing

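Differences below are log2. The 1 h differences of GLIPR1 kept their sign under all alternatives, and the other probe sets moved some by more than the spread between replicates: 204221_x_at gave 0.63 and 1.96 with MWCNT 10 and 100 and 0.93 and 2.14 with TiO2-NB 10 and 100, and 204222_s_at gave 2.58 with MWCNT 100 and 1.67 between the MWCNT doses. The call on TiO2-NB 100 at 24 h was lost with the compared groups fitted alone (0.52, adjusted p = 0.0995), with all probe sets fitted (0.52, adjusted p = 0.0528), in 204221_x_at (0.40) and without 5 of the 6 single arrays (over all 6, 0.39 to 0.62, adjusted p = 0.0336 to 0.166). Calls were gained for MWCNT 100 against TiO2-NB 100 at 24 h with the compared groups alone (-0.44, adjusted p = 0.0248) and with array weights (-0.50, adjusted p = 0.0085), for the TiO2-NB doses at 24 h in 204222_s_at (0.66), and for both doses at 24 h between the particles with loess (-0.32, exact permutation p = 0.03) and in 204221_x_at (-0.23). The near-zero 24 h differences turned sign: MWCNT 10 with array weights (-0.15), in 204222_s_at (-0.0051) and without single arrays (-0.11 to 0.14); MWCNT 100 with array weights (-0.11), in 204221_x_at (-0.017) and without single arrays (-0.050 to 0.18); TiO2-NB 10 with array weights (-0.13), in 204222_s_at (-0.027) and without single arrays (-0.038 to 0.20); the MWCNT doses in 204221_x_at (-0.090) and without single arrays (-0.059 to 0.15); and the particles at 10 ug/ml in 204222_s_at (0.022) and without single arrays (-0.19 to 0.048).

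The number of genes called, used as background, moved more than the GLIPR1 values did. With array weights it was 8, 722, 2170 and 3081 in MWCNT 10, MWCNT 100, TiO2-NB 10 and TiO2-NB 100 against controls at 24 h, 13, 353 and 195 in the first 3 of these at 1 h, 1 and 283 between the doses of MWCNT and TiO2-NB at 24 h, 118 and 68 between them at 1 h, and 1284, 3095, 260 and 5 between the particles (10 and 100 ug/ml at 24 h, then at 1 h). With the compared groups fitted alone it was 0 and 16 in TiO2-NB 10 and 100 at 24 h, 1, 84, 53 and 105 in the 4 exposed groups at 1 h, 30 between the TiO2-NB doses at 24 h, 38 and 11 between the doses at 1 h, and 7 and 4 between the particles at 10 ug/ml at 24 and 1 h. Cyclic loess gave 177 and 803 in TiO2-NB 10 and 100 at 24 h and 206, 811 and 3 between the particles (10 and 100 ug/ml at 24 h, 10 ug/ml at 1 h). The filter on dim genes gave 2 and 10 between the particles at 1 h. All probe sets fitted gave 2 and 4 there, and 323, 283 and 585 in MWCNT 100, TiO2-NB 10 and TiO2-NB 100 at 1 h.

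Leaving out single arrays gave 0 to 1 genes in MWCNT 100 at 24 h, 74 to 956 in TiO2-NB 10 and 718 to 1513 in TiO2-NB 100, lowest without control replicate 1 for the 10 and without TiO2-NB replicate 3 for the 100 ug/ml group. It gave 68 to 135 between the TiO2-NB doses, and 20 to 798 and 607 to 1061 between the particles at 10 and 100 ug/ml at 24 h. At 1 h it gave 2 to 16, 91 to 210, 14 to 113 and 143 to 374 in MWCNT 10, MWCNT 100, TiO2-NB 10 and TiO2-NB 100, and 40 to 60 and 21 to 29 between the doses. Graded genes numbered 53 to 71 without 1 replicate number, where fewer arrays make a lack of overlap easier. Of the 10 most like genes 7 to 10 were shared under the alternatives. Where no cause is named, the cause was not tested.

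Replicate numbers did not clearly pair the arrays: deviations of same-numbered arrays correlated at -0.248 to 0.33 over 48 pairs, and every sample correlated best with its own number in 1 of 16 comparisons. In the lead set of GLIPR1 at 1 h, however, replicate 1 was lowest and replicate 3 highest in every group but TiO2-NB 100. A replicate effect on GLIPR1 was not tested beyond the replicate block. A replicate block changed no call on GLIPR1 (TiO2-NB 100 at 24 h 0.52, adjusted p = 0.0422) and moved no count of genes called by over 1.5 times. Precision is limited by 3 arrays per group and, for dim probe sets, by the signal over background.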
